A study of Drosophila melanogaster with 4 samples.

Results

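Levels of 5 heat shock genes were followed in ovaries of Drosophila melanogaster: the 4 small heat shock protein genes Hsp22, Hsp23, Hsp26 and Hsp27, and Hsp83, the fly gene for the Hsp90 chaperone. The genes were chosen by name, with earlier results of these data known. All 5 were found among the 14777 genes that could be named, by their RefSeq transcripts, and all 5 passed the filter on low values. The study asked whether transposon silencing in the adult ovary requires Piwi, a nuclear Argonaute protein guided by piRNAs, during embryogenesis. Ribosome-depleted total RNA was sequenced from 2 piwi-embKD libraries (genotype vasa-GAL80[ts]/+;;da-GAL4/shpiwi, a hairpin against piwi) and from 2 white-embKD libraries (vasa-GAL80[ts]/+;;da-GAL4/shwhite, a hairpin against the eye-colour gene white). Both groups carried the da-GAL4 driver and a temperature-sensitive GAL80 repressor of GAL4 under the germline vasa control. Both were kept at 18 °C and moved to 28 °C as embryos to switch on RNA interference, so a warm embryonic period was common to all 4 libraries. The sources used here give neither the age of the flies nor the temperature at which adults were held. The 2 libraries of each group are described as biological replicates.

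Heat shock proteins are chaperones, which keep other proteins from misfolding or help them to fold. The small heat shock proteins share a crystallin-like domain and bind unfolded proteins without using ATP. Hsp83 uses ATP and matures client proteins together with co-chaperones, and in flies it is known to take part in loading piRNAs onto Argonaute proteins. The heat shock factor Hsf switches all 5 genes on in stressed cells. In fly ovaries the nurse cells are known to make Hsp26, Hsp27 and Hsp83 RNA without any heat shock and to pass it to the oocyte.

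The inferred depth was 16194219 and 16445363 effective counts in the piwi-embKD libraries and 20025084 and 19271509.9 in the white-embKD libraries. Levels are the authors' normalized effective counts, which are estimated numbers of fragments per transcript, scaled per library and summed here over the transcripts of a gene. Their total per library lay between 970339.8 and 1017515. The target of the hairpin, piwi, stood at 238 and 121 in the piwi-embKD libraries against 410.0 and 401 in the white-embKD libraries, and the difference did not pass the test (log2 change −1.25, limma adjusted p = 0.0562). The tissue was checked with 10 germline genes, such as osk, vas and nanos, which summed to 7070.1 and 7044 in the piwi-embKD libraries and to 8002 and 7958 in the white-embKD libraries. Marker sums of the germline, follicle cells, muscle and gut stood apart between the groups, while those of fat body overlapped. The germline and gut sums were lower in the piwi-embKD libraries. The gut sum also differed widely between the 2 piwi-embKD libraries. The 11 follicle cell markers summed to 3481 and 3552 in the piwi-embKD libraries and to 1676 and 1636 in the white-embKD libraries. The 10 muscle markers summed to 239.9 and 197 in piwi-embKD and to 135 and 127 in white-embKD libraries, and the 10 gut markers to 76.8 and 0.880 in piwi-embKD and to 227 and 205 in white-embKD libraries. The 7 fat body markers summed to 175 and 141 in piwi-embKD and to 147 and 140.6 in white-embKD libraries, and the larval serum protein gene Lsp1alpha was listed at 0 in all 4. Of 10 tested follicle cell markers 6 rose (median log2 change 0.83), led by the yolk protein genes Yp1 and Yp3, and of 10 muscle markers 4 rose (median 0.72). Of 10 gut markers 6 fell (median −3.25), and none of 9 germline markers was called in limma. At an unadjusted limma p under 0.05, 0 of those 9 were higher and 3 lower, against 13.3% and 11.8% of all features. Groups were compared with limma, a linear model whose spread is shared across features, on log2(value + 0.995), and a positive log2 change on that scale means a higher piwi-embKD level. Of 8118 features tested, 556 (6.85%) were called at an adjusted p under 0.05.

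Of the 5 genes, 2 fell, 0 rose and 3 were not called. In limma, 3 were lower and 1 was higher at an unadjusted p under 0.05, where 11.8% of all features were lower and 13.3% higher. Hsp22 fell to 0.396 and Hsp26 to 0.668 of the white-embKD mean, Hsp27 and Hsp83 were not called, and Hsp23 had a higher mean that also was not called. Among all features tested, 1.68% were called lower and 5.17% higher in piwi-embKD ovaries. Both piwi-embKD libraries lay below both white-embKD libraries for 4 of the 5 genes and above them for 1, where 33.1% of all features lay below and 25.9% above (59.0% in either direction). The median log2 change of the 5 genes was −0.36, against −0.04 over all features tested.

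**Figure D1:**
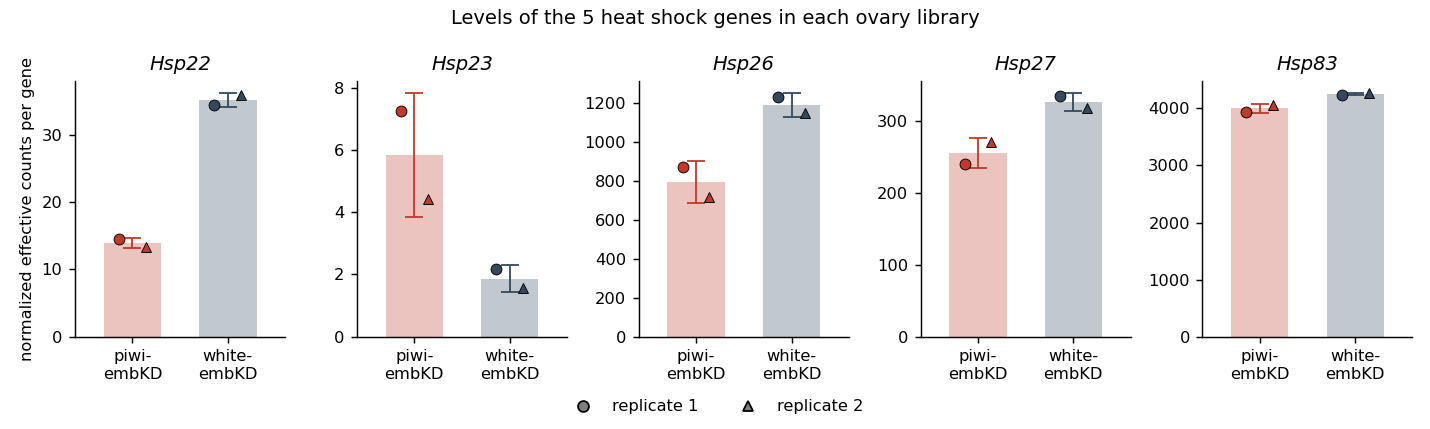
Normalized effective counts per gene (y axis, starting at 0, scaled for each gene) in the piwi-embKD and white-embKD ovaries; circles and triangles are replicates 1 and 2, bars are means and error bars the SD of 2 libraries. Hsp22, Hsp26, Hsp27 and Hsp83 were lower and Hsp23 was higher in both piwi-embKD libraries than in both white-embKD libraries, and the gap was narrowest for Hsp83.

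**Figure D2:**
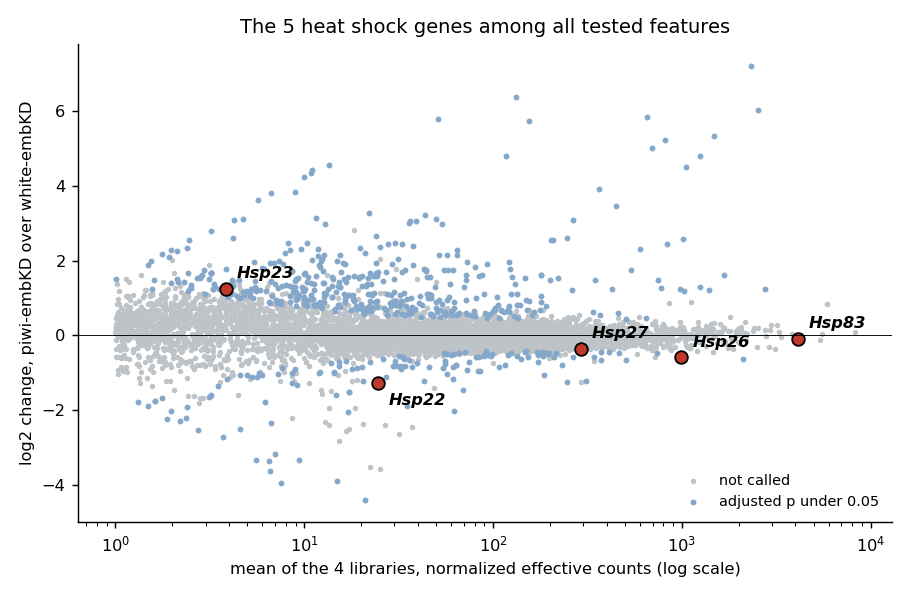
Log2 change of piwi-embKD over white-embKD (y axis) against the mean level of the 4 libraries on a log scale (x axis) for 8118 features, with called features in blue and the 5 heat shock genes in red. Hsp22 lies among the called features at −1.28, and Hsp83, one of the features with the highest levels, near 0 at −0.09.

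Hsp26 encodes a cytosolic chaperone. It is annotated on chromosome arm 3L on the minus strand (FBgn0001225), in a single exon. Its level was 872 and 721 in the piwi-embKD libraries and 1235 and 1150.4 in the white-embKD libraries, with a piwi-embKD mean of 796 ± 107 and a white-embKD mean of 1193 ± 60.04 (SD, n = 2 each). The groups did not overlap, and piwi-embKD replicate 2 was the lowest library. Hsp26 fell with a log2 change of −0.59 ± 0.12 SE (95% interval −0.89 to −0.29, limma adjusted p = 0.0446). That call was lost with either white-embKD library left out, at −0.54 without replicate 1 and −0.64 without replicate 2. With either piwi-embKD library left out it was kept, at −0.72 without replicate 1 and −0.45 without replicate 2. Over all features, too, fewer were called without a white-embKD library and more without a piwi-embKD library. The Hsp26 call was also lost with no intensity trend (limma adjusted p = 0.0843), with every low feature kept (0.283) and at the level of single transcripts (0.171). In bulk RNA, fewer cells that express a gene and less of its RNA per cell cannot be told apart.

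Hsp22 encodes a small heat shock protein known to work in mitochondria. It stood at 14.5 and 13.3 in the piwi-embKD libraries and at 34.5 and 35.9 in the white-embKD libraries. Both pairs were tight, and the gap between the groups was many times the spread within them. The piwi-embKD mean was 13.9 ± 0.81 and the white-embKD mean 35.2 ± 1.01 (SD, n = 2 each), a ratio of 0.396. Hsp22 fell with a log2 change of −1.28 ± 0.12 SE (95% interval −1.58 to −0.98, limma adjusted p = 0.00321), and 0.764% of all features tested had a lower log2 change. Inferred effective counts behind these values were 231 and 219 in the piwi-embKD libraries and 698 and 713 in the white-embKD libraries. The call was lost when every low feature was kept (limma adjusted p = 0.0654) and at the level of single transcripts (0.0722).

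All exonic bases of Hsp22 (FBgn0001223, plus strand of 3L) are also exonic in CG4456, formerly named Hsp67Bb, on the same strand. One annotated mRNA of 1900 nt and 3 exons is the same in both genes, while a shorter Hsp22 mRNA of 968 nt consists of 1 exon. In the deposited tables the Hsp22 transcript NM_001031944 and the CG4456 transcript NM_001031945 held equal values in every library, 0.215 and 0.328 in the piwi-embKD libraries and 0.640 and 0.544 in the white-embKD libraries. How the shared mRNA divides between the genes cannot be read from such values. The Hsp22 transcript NM_001031943 alone held 14.3 and 13.0 in the piwi-embKD libraries and 33.8 and 35.3 in the white-embKD libraries. Hsp22 and CG4456 together came to 14.9 and 13.9 in the piwi-embKD libraries, against 35.4 and 36.4 in the white-embKD libraries, a ratio of means of 0.400.

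Hsp27 (FBgn0001226, plus strand of 3L, a single exon) encodes a small heat shock protein found in nuclei, and a small share of its exonic bases overlaps the opposite-strand gene CR43483. It stood at 240.25 and 270.1 in the piwi-embKD libraries and at 335 and 318 in the white-embKD libraries. The groups did not overlap, although the piwi-embKD replicates were further apart than the white-embKD replicates. The piwi-embKD mean was 255 ± 21.1 and the white-embKD mean 326 ± 12.1 (SD, n = 2 each), with a log2 change of −0.36 ± 0.10 SE (95% interval −0.60 to −0.11, limma adjusted p = 0.0965), which did not pass. With only 1 piwi-embKD library in the fit, the spread came from the white-embKD pair, and more of all features passed than with every library. Hsp27 passed there too, both without replicate 1 (−0.27) and without replicate 2 (−0.44). With only 1 white-embKD library it did not pass, at −0.32 without replicate 1 and −0.39 without replicate 2.

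Hsp23 (FBgn0001224, plus strand of 3L, a single exon) encodes another cytosolic small heat shock protein and lies next to Hsp27. It was the only one of the 5 with higher values in piwi-embKD ovaries, at 7.24 and 4.44, against 2.17 and 1.56 in white-embKD ovaries. Replicate 1 was the higher library in both groups, and the groups did not overlap. The piwi-embKD mean was 5.84 ± 1.98 and the white-embKD mean 1.87 ± 0.43 (SD, n = 2 each), and the log2 change of 1.23 ± 0.28 SE did not pass (95% interval 0.55 to 1.92, limma adjusted p = 0.0561). Effective counts were low, at 115.3 and 72.7 in the piwi-embKD libraries and 43.9 and 31.1 in the white-embKD libraries. With only 1 piwi-embKD library the spread came from the white-embKD pair, and more of all features passed than with every library. Hsp23 passed there too, at 0.93 without replicate 1 and 1.53 without replicate 2, which does not set it apart. With only 1 white-embKD library the difference did not pass, at 1.39 without replicate 1 and 1.08 without replicate 2. Its size was 0.74 with 4 times the pseudocount and 1.502 with a pseudocount of 0.249.

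The deposited tables list a pair of Hsp23 transcripts, and their division differed between libraries of the same group. NM_001259765 held 7.24 and 2.70 in the piwi-embKD libraries and 2.17 and 1.18 in the white-embKD libraries. NM_079275 was near 0 in piwi-embKD replicate 1, at 1.74 in piwi-embKD replicate 2, at 0 in white-embKD replicate 1 and at 0.381 in white-embKD replicate 2. Only the sum over the gene is compared here.

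Hsp83 (FBgn0001233, plus strand of 3L) differs from the small heat shock genes in having 2 exons in each annotated transcript. Without correction for length, it ranked between place 5 and place 8 of all named genes in the 4 libraries. Its level was 3943 and 4058 in the piwi-embKD libraries and 4237 and 4260.3 in the white-embKD libraries. The groups did not overlap, but their distance was small beside the level. The piwi-embKD mean was 4001 ± 81.2 and the white-embKD mean 4249 ± 16.3 (SD, n = 2 each), and the log2 change of −0.09 ± 0.11 SE did not pass (limma adjusted p = 0.655). The 95% interval of that change ran from −0.36 to 0.19. Nearly all of the signal was in NM_079175, at 3875 and 3989 in the piwi-embKD libraries against 4168 and 4195 in the white-embKD libraries. The minor transcript NM_001274433 stood at 68.0 and 69.6 in the piwi-embKD libraries against 69.2 and 65.04 in the white-embKD libraries, and its groups overlapped.

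**Figure D3:**
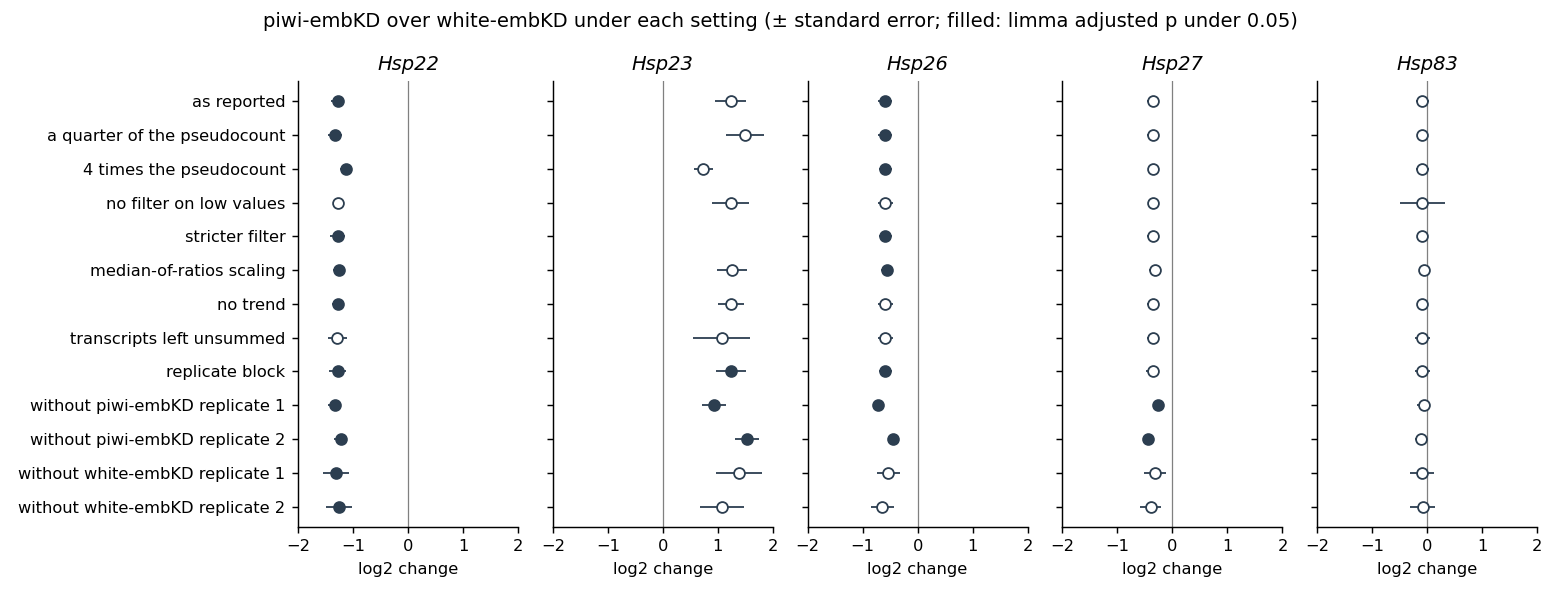
Log2 change of piwi-embKD over white-embKD (x axis, ± standard error) for each of the 5 genes under the reported fit and each alternative (y axis); filled points have a limma adjusted p under 0.05. Each gene stayed on 1 side of 0 throughout, Hsp22 between −1.33 and −1.13, and only Hsp83 stayed on 1 side of the threshold in every fit shown.

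Because effective counts grow with transcript length, levels of different genes were compared per kilobase of the longest annotated mRNA. On that scale the order was Hsp83, Hsp26, Hsp27, Hsp22 and Hsp23 in white-embKD ovaries. Hsp83 had 1332 and 1371 per kilobase in the piwi-embKD libraries against 1432 and 1439 in the white-embKD libraries. Hsp26 followed with 863 and 714 per kilobase in the piwi-embKD libraries against 1223 and 1139 in the white-embKD libraries. Hsp27 had 147 and 166 per kilobase in the piwi-embKD libraries against 205 and 195 in the white-embKD libraries. The distance between Hsp83 and Hsp26 exceeded the spread between libraries in both groups. With the longest mRNA, Hsp22 had 7.63 and 7.03 per kilobase and Hsp23 8.19 and 5.02 in the piwi-embKD libraries. On that length the last 2 places could not be told apart there. In the white-embKD libraries Hsp22 stood at 18.1 and 18.9 and Hsp23 at 2.45 and 1.77. With the shortest annotated mRNA in place of the longest, Hsp22 came to 14.97 and 13.8 per kilobase in the piwi-embKD libraries and stood above Hsp23, at 8.53 and 5.23, in both. The Hsp22 transcript with values equal to those of a CG4456 transcript held 1.48% to 2.45% of the Hsp22 level in each library. If it is the shared mRNA of 1900 nt, the shorter length applies to nearly all of that level.

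Ratios within a library do not depend on the normalization factor of that library. The ratio of Hsp26 to Hsp22 was 60.2 and 54.0 in the piwi-embKD libraries and 35.8 and 32.1 in the white-embKD libraries. Hsp83 exceeded Hsp26 by 4.52 and 5.63 times in the piwi-embKD libraries and by 3.43 and 3.70 times in the white-embKD libraries, as counted without correction for length. The ratio of Hsp22 to Hsp23 was 2.000 and 3.01 in the piwi-embKD libraries against 15.9 and 22.95 in the white-embKD libraries. In contrast, the ratio of Hsp26 to Hsp27 was 3.63 and 2.67 in the piwi-embKD libraries and 3.69 and 3.62 in the white-embKD libraries, so piwi-embKD replicate 1 stood inside the white-embKD values and replicate 2 below them. Permuting 2 against 2 libraries exactly allows no two-sided p under 0.333, so these ratios were not tested. Summed, the 4 small heat shock genes stood at 1134 and 1009 in the piwi-embKD libraries and 1607 and 1506 in the white-embKD libraries, and most of that sum was Hsp26.

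The 4 small heat shock genes lie in 1 cluster on 3L, known as 67B, with further genes of the family between them. In annotated order the measured genes are Hsp67Bc, CG4456, Hsp22, CG4461, Hsp26, Hsp67Ba, Hsp23 and Hsp27. Hsp67Bc, CG4456 and Hsp67Ba stayed under 1 in all 4 libraries and below the filter. CG4461, between Hsp22 and Hsp26, was listed at 0 in all 4. Directly outside, the ferredoxin gene Fdx1 stood at 13.6 and 12.04 in the piwi-embKD libraries and 12.9 and 14.9 in the white-embKD libraries (log2 change −0.11, limma adjusted p = 0.690). CG4080, on the other flank, stood at 77.2 and 74.6 in the piwi-embKD libraries against 79.04 and 75.1 in the white-embKD libraries (−0.02, limma adjusted p = 0.905). Neither flanking gene had groups that stood apart. The neighbours of Hsp83, which lies elsewhere on 3L, were not called either: CG14965 had a log2 change of −0.48 (limma adjusted p = 0.0803) and CG14966 one of 0.20 (0.536). CG14966 shares 0.507% of the exonic bases of Hsp83, on the opposite strand.

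**Figure D4:**
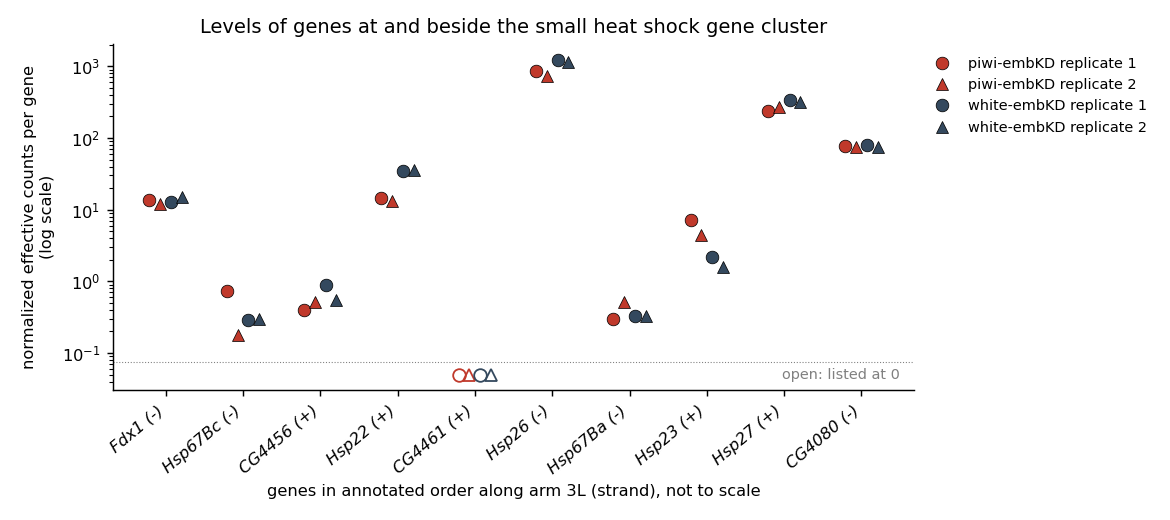
Normalized effective counts per gene on a log scale (y axis) for the measured genes of the 67B cluster and its flanking genes Fdx1 and CG4080, in annotated order with strand (x axis, not to scale); red marks piwi-embKD and dark blue white-embKD libraries, and open symbols are values listed at 0. Hsp22, Hsp26, Hsp27 and the untested CG4456 separate downwards in piwi-embKD ovaries, Hsp23 upwards, and the flanking genes overlap. Hsp23 and Hsp27 were not called.

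The other chaperone and stress genes were taken from lists chosen by function. With 6.85% of all features called, a single call in a list is not read as a trait of that list. Of 8 further small heat shock genes, 7 lay below the filter, among them l(2)efl, at 0.880 and 1.26 in the piwi-embKD libraries and 0.344 and 0.637 in the white-embKD libraries. CG14207, a small heat shock protein gene on the X chromosome, was the only one tested, at 89.1 and 79.7 in the piwi-embKD libraries and 95.2 and 94.8 in the white-embKD libraries (log2 change −0.17, limma adjusted p = 0.336).

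None of 12 co-chaperones of Hsp90 was called in limma, with a median log2 change of −0.14. Of the 12, 0 were higher and 1 lower at an unadjusted limma p under 0.05, against 13.3% and 11.8% of all features. The highest levels, uncorrected for length, were those of p23, which stabilizes the client-bound state of Hsp90, at 561 and 489 in the piwi-embKD libraries and 606 and 548 in the white-embKD libraries, and Stip1 (Hop), which links Hsp70 to Hsp90 and in flies binds Piwi, at 545 and 484 in piwi-embKD against 499 and 464 in white-embKD libraries. Both genes had groups that overlapped. Shutdown (shu), a co-chaperone required for piRNA loading, stood at 129 and 113 in the piwi-embKD libraries against 140.0 and 137 in the white-embKD libraries (log2 change −0.19, limma adjusted p = 0.296). STUB1 (CHIP), a ubiquitin ligase for chaperone clients, had the lowest log2 change of the list, −0.36 (limma adjusted p = 0.136).

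Of 11 genes for Hsf and factors known to act at heat shock promoters or to be transcribed with them, 1 rose and 0 fell. Over all features 5.17% rose and 1.68% fell. At an unadjusted limma p under 0.05, 1 of the 11 was higher and 3 were lower, against 13.3% and 11.8% of all features. The median log2 change of the list was −0.05. Hsf itself stood at 283 and 259 in the piwi-embKD libraries and 332 and 339.5 in the white-embKD libraries, a log2 change of −0.31 ± 0.09 SE that did not pass (limma adjusted p = 0.110). The gene that rose was fs(1)h, a bromodomain protein of the BET family, at 236 and 199 in the piwi-embKD libraries against 142 and 130.4 in the white-embKD libraries (log2 change 0.67, limma adjusted p = 0.0232). The polyubiquitin gene Ubi-p5E stood at 993 and 921 in the piwi-embKD libraries and at 1185 and 1185 in the white-embKD libraries, and was not called (−0.31, limma adjusted p = 0.122). The heat-inducible noncoding RNA lncRNA:Hsromega stood at 852 and 1113 in the piwi-embKD libraries and 926 and 829.5 in the white-embKD libraries, and another polyubiquitin gene Ubi-p63E at 815 and 966 in piwi-embKD against 831 and 915 in white-embKD libraries, and the groups overlapped for both.

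In the Hsp70 family, the main ATP-driven chaperones of the cytosol, 3 of 10 tested genes rose and 0 fell, with a median log2 change of 0.33. Of all features 5.17% rose and 1.68% fell. The 3 were copies of the heat-inducible Hsp70B group: Hsp70Bb and Hsp70Bbb, which held equal values of 13.6 and 13.8 in the piwi-embKD libraries against 3.25 and 3.76 in the white-embKD libraries, and Hsp70Bc, at 10.5 and 12.4 in piwi-embKD against 3.29 and 1.45 in white-embKD libraries. These copies are nearly identical, their division is uncertain, and the equal pair is 1 measurement rather than 2. Hsp70Aa and Hsp70Ab, also near-copies, were not called, with log2 changes of 0.31 and 0.34. The constitutive Hsc70-4 stood at 3903 and 3901 in the piwi-embKD libraries and 3777 and 3765 in the white-embKD libraries (log2 change 0.05, limma adjusted p = 0.802), and the endoplasmic reticulum member Hsc70-3 at 814 and 829 in piwi-embKD against 786 and 803 in white-embKD libraries. Of the small heat shock genes and Hsp83, which Hsf also controls, Hsp22 and Hsp26 fell. Hsp23 (log2 change 1.23), Hsp27 (−0.36) and Hsp83 (−0.09) were not called, and in the Hsp70 family neither was Hsp68 (0.59). A part of Hsf in any of these values was not tested.

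Of 12 DNAJ proteins and nucleotide exchange factors, which drive the Hsp70 cycle, 0 rose and 1 fell, against 5.17% and 1.68% of all features. Their median log2 change was −0.07. DnaJ-H fell to 77.4 and 80.4 in the piwi-embKD libraries, against 111 and 119 in the white-embKD libraries (log2 change −0.54, limma adjusted p = 0.0263). The heat-inducible DnaJ-1, a partner of Hsp70, stood at 159.6 and 137 in the piwi-embKD libraries against 169 and 194 in the white-embKD libraries, and was not called (−0.29, limma adjusted p = 0.203). Droj2 had overlapping groups, at 685 and 761 in the piwi-embKD libraries against 784 and 733 in the white-embKD libraries, and mrj stood at 236 and 206 in the piwi-embKD libraries against 259 and 252 in the white-embKD libraries (−0.21). None of 11 tested chaperonin and mitochondrial chaperone genes was called in limma (2 higher and 0 lower at an unadjusted p under 0.05, against 25.1% of all features in either direction, median 0.12). Hsp60A, the mitochondrial chaperonin, had the highest log2 change among them, at 617 and 779 in the piwi-embKD libraries against 504 and 482 in the white-embKD libraries (0.49, limma adjusted p = 0.0837). The cytosolic chaperonin subunit CCT2 stood at 943 and 943 in the piwi-embKD libraries against 822 and 834 in the white-embKD libraries (0.19), and CCT1 had a log2 change of 0.05.

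Among 10 genes of the endoplasmic reticulum stress response 1 rose and 0 fell (median 0.13), against 5.17% and 1.68% of all features. Gp93, the Hsp90 of the endoplasmic reticulum and a relative of Hsp83, rose to 186 and 216 in the piwi-embKD libraries, against 122 and 139.8 in the white-embKD libraries (log2 change 0.62, limma adjusted p = 0.0352). Hsp83 and the mitochondrial Hsp90, Trap1, were not called, Trap1 with a log2 change of −0.05. The disulfide isomerase genes ERp60 and Pdi had log2 changes of 0.08 and 0.20 and were not called. Of 11 oxidative stress genes 0 rose and 1 fell (median −0.09), against the same 5.17% and 1.68% of all features. The gene that fell was ref(2)P, an autophagy receptor, at 328 and 310.1 in piwi-embKD against 429.5 and 433 in white-embKD libraries (−0.43, limma adjusted p = 0.0414). GstD1, a glutathione transferase, and Sod1, a superoxide dismutase, had overlapping groups and log2 changes of −0.15 and −0.09. With either white-embKD library left out, where fewer of all features were called, the calls of fs(1)h, DnaJ-H, Gp93 and ref(2)P were lost. The parts of the higher follicle cell and muscle marker sums and of the lower germline and gut marker sums in any of these values were not tested.

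**Figure D5:**
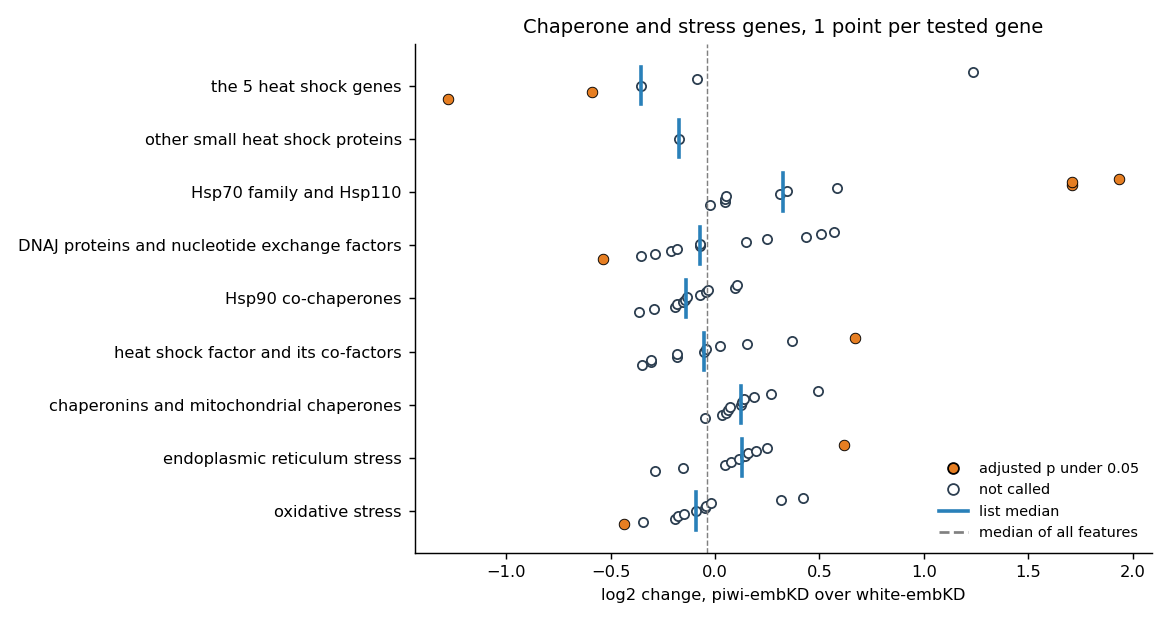
Log2 change of piwi-embKD over white-embKD (x axis) for each tested gene of the chaperone and stress lists (y axis), with called genes in orange, list medians as blue bars and the median of all features as a dashed line. Hsp22, at −1.28, has the lowest value shown and Hsp70Bc, at 1.93, the highest.

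Genes with the most similar pattern were found as those with the smallest Euclidean distance between log2 values centred on their own mean over the 4 libraries, which is a description and rests on 4 points. For Hsp22 they were Idgf2, a secreted chitinase-like growth factor gene, at 17.1 and 16.5 in the piwi-embKD libraries against 38.2 and 37.1 in the white-embKD libraries (distance 0.180), and the neprilysin-like gene Nepl3 (0.206). For Hsp23 they were the nuclear receptor gene Hr3, at 8.86 and 5.63 in piwi-embKD against 2.75 and 2.35 in white-embKD libraries (distance 0.111), and nemy (0.132). Only tested genes with a name were searched, so transposons were left out. The number of genes within a distance of 0.2 was larger for members that changed less, and is no trait of a pattern. For Hsp22 1 gene lay within that distance and for Hsp23 2. Around Hsp26 there were 112 such genes, with CG11034 (0.0397) and speck (0.0567) nearest, and around Hsp27 540, with CG30020 (0.0221) and TAF1C-like (0.0347) nearest. Around Hsp83, which differed least between the groups, there were 2368, with Naa60 and m-cup nearest (0.0175 and 0.0185). The 5 heat shock genes were not each other's nearest: Hsp26 lay at 0.391 from Hsp27, with 1096 genes closer to Hsp26, and Hsp22 at 0.710 from Hsp26, with 121 genes closer to Hsp22.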

How the data were processed

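The authors deposited 1 signal value per target and library. Per the file headers and names, this signal is the effective count from eXpress, multiplied by a normalization factor. The source of that factor, the annotation, the strand setting and any filter were not given in the sources used here. The submitters' processing notes name Bowtie2, STAR, Cufflinks and dm3, without their roles. Of 29511 transcripts, 28595 (96.9%) were matched to gene symbols with a RefSeq table of Release 6 and summed per gene. Strands, exons and mRNA lengths came from Ensembl release 115. Both annotations are of another build than dm3, so no coordinate is given. The 4 libraries were compared with limma 3.58.1 (R 4.3.3, intensity trend) on log2(value + 0.995), a scale that understates changes of low genes. A feature needed a mean of 0.995 to be tested. P-values are two-sided and adjusted by Benjamini-Hochberg over all 8118 features. The fit was tested on simulated data. Depth assumes that the smallest step between values is the last decimal that eXpress writes. A value of 0 could have held up to 3 effective counts, a level of 0.188 and 0.183 in the piwi-embKD libraries and 0.148 and 0.151 in the white-embKD libraries, which covers counting error only. The genes and lists were chosen with earlier results of these data known. Besides the 5 genes and their neighbours, the rule named the 2 most similar genes and, for each chaperone or stress list, the 2 with the highest level and up to 4 called genes with the largest change. Cell markers are given by sums and counts. Any other gene named was chosen after its values were seen. The hairpin differs between the groups, and an effect of the fly line cannot be told apart from that of the knockdown.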

Additional observations from a re-analysis of the deposited data

How the results depend on the processing

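All 5 genes kept the direction of their change under every alternative that could be run. The 556 features called became 156 with no filter and 91 for single transcripts, and lay between 209 and 2902 with 1 library left out. The log2 change of Hsp22 was −1.28 both without the filter and with transcripts unsummed, and no longer passed. The log2 change of Hsp26 was −0.59 without the filter, without the trend and with transcripts unsummed and did not pass there, and ran from −0.72 to −0.45 over the left-out libraries. Hsp23 ran from 0.93 to 1.53 and Hsp27 from −0.44 to −0.27 over the left-out libraries. Under the stricter filter, Hsp23 was not tested. With the replicate block, which pairs same-numbered libraries, 811 features were called and Hsp23 passed (1.23, limma adjusted p = 0.0149), and none of the other 4 genes changed sides. No label says that a number marks a shared batch. Across features, deviations of same-numbered libraries correlated at r = 0.0576. Hsp83 was not called under any of these settings. The 7 other chaperone and stress genes that were called also kept their direction, and each lost its call in 2 to 6 of 11 or 12 alternatives. Each group had 2 libraries, and Hsp23 rested on 31.1 to 115.3 effective counts. The smallest change detectable at this depth was not measured.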
